A study of Mus musculus with 8 samples.

Results

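Methylation of the imprinted loci Mest-Copg2 and Peg10-Sgce was read at single CpGs in nephron progenitors of the embryonic mouse kidney. The members are all CpGs, with both strands added, that had at least 10 reads in all 8 libraries and lay in the gene bodies of Mest, Copg2, Peg10 or Sgce or within 5 kb of either end, on chromosome 6 of the mm10 build. This gave 65 of the 441994 autosomal CpGs shared at that depth. They fell in 5 of 36513 tiles of 1 kb and in 5 of 32122 CpG clusters, which are runs of at least 3 shared CpGs with no gap over 500 bp. Each of the 5 tiles holds the same CpGs as 1 of the 5 clusters. The loci were picked out by gene, knowing how their levels differed by diet in these same libraries, so the differences by diet given here are descriptions and support no claim about imprinted genes.

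The study asked how restricting the food of pregnant dams alters the DNA methylation of nephron progenitors in their embryos, by reduced representation bisulfite sequencing (RRBS). There were 4 libraries from embryos of dams on the restricted diet, which got 70% of the average daily intake once a day, and 4 from dams with unrestricted food. All embryos were outbred CD1, heterozygous for the Six2 Cre+/tg transgene, which places EGFP and Cre under Six2 control, from transgenic males and wild-type females, and were taken at E17.5 without separating the sexes. Progenitors were sorted by flow cytometry for GFP, but no label ties a library to an embryo, a litter or a pool. The p-values below therefore reflect the variation among these libraries, which may be technical in part.

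Imprinted genes are expressed from the copy of 1 parent. Mest, also named Peg1, encodes a hydrolase-like protein and is expressed from the paternal copy; its control region is methylated in the oocyte and keeps that mark on the maternal copy in body cells. Copg2 encodes a gamma subunit of the COPI coat, which carries vesicles between Golgi and endoplasmic reticulum, and lies tail to tail with Mest. Peg10 derives from a retrotransposon and is needed for the placenta; Sgce encodes epsilon-sarcoglycan, a membrane protein. Peg10 and Sgce start head to head and share a control region that is likewise methylated on the maternal copy, with expression from the paternal copy. In bulk bisulfite data such a region reads at an intermediate level, because methylated and unmethylated copies are mixed.

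The sequences just before the Mest and Copg2 starts are shown because the Mest control region has been mapped around the main Mest start. The CpGs that reached the read minimum lay outside these sequences. Some CpGs just after the main Mest start were read, but too thinly for that minimum. Each is 250 bases long and ends at the base before the RefSeq start (GRCm38.p6, the mm10 assembly), with every CpG in capitals. Mest has an upstream start at position 30733506 and a main start at 30738050, both on the forward strand. The windows are chr6:30733256-30733505 and chr6:30737800-30738049 for Mest, and chr6:30896795-30897044 on the reverse strand for Copg2.
Mest upstream start: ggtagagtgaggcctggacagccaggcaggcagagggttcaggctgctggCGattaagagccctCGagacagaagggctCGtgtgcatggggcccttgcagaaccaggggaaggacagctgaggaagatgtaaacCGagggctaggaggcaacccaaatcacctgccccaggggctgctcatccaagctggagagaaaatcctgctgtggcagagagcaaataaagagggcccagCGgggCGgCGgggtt
Mest main start: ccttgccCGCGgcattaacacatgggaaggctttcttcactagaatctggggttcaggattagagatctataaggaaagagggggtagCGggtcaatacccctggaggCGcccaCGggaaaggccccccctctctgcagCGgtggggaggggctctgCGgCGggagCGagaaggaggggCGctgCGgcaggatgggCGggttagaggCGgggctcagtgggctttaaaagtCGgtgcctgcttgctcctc
Copg2 start: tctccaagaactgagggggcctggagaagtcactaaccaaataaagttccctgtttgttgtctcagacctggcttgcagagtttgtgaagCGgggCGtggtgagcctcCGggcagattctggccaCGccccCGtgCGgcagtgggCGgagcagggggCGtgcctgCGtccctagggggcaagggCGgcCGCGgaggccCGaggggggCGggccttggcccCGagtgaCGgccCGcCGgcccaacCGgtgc

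The window before the main Mest start holds 14 CpGs, that before the upstream Mest start 7 and that before Copg2 19, against a median of 6 over 32851 promoters of the same length. CCGG, the sequence cut by MspI, the enzyme usual in RRBS, is in 47.1% of these promoters; it occurs 3 times before Copg2 and not in either Mest window. TGCCGC, the motif bound in methylated form by the zinc finger protein ZFP57, which keeps imprints, was searched on both strands. It occurs 2 times before the main Mest start, with its first base at positions 9 and 184 of the sequence above, and 1 time before Copg2; 8.68% of promoters hold it. These are matches of letters and not measured binding. No library had a read over any CpG of either Mest window. Before Copg2, 18 of the 19 CpGs had reads, in all 8 libraries, and 0 of 1495 CpG readings were methylated; the reading total was lowest, at 52, in restricted library 2.

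Of the 301 CpGs with any read in the 4 gene windows, 191 lay in the Mest-Copg2 windows and 110 in those of Peg10-Sgce. The 65 that reached the minimum were 9 CpGs of Mest, 28 of Copg2, 24 of Peg10 and 15 of Sgce, with 11 counted under both Peg10 and Sgce. By level they fell into 3 kinds. The start of Copg2 was unmethylated, the bodies of Sgce and Peg10 were almost fully methylated, and 1 cluster at each locus was intermediate. These intermediate clusters are called the Mest and the Peg10-Sgce control regions below, from their level and their place at the locus alone. The Mest cluster ends 2.57 kb before the main Mest start, around which its control region has been mapped. Whether the cluster is part of that mapped region was not tested. Which parental copy a read came from was not analysed here. Exon and intron positions were not used here.

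**Figure D1:**
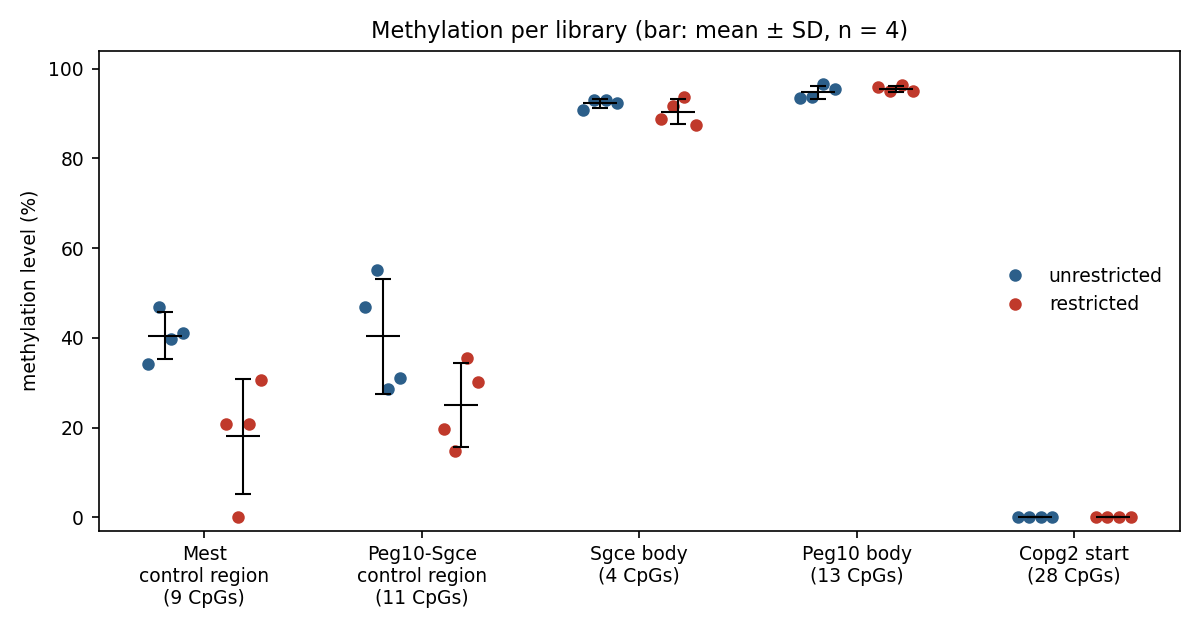
Methylation level (%) of the 5 clusters in each library, as points, with the mean and SD of 4 libraries per group as bars. Both control regions lie between the unmethylated Copg2 start and the Sgce and Peg10 bodies at 87.5 to 96.5%; at the Mest region all restricted points lie below all unrestricted points.

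The Mest control region has 9 CpGs at chr6:30735330-30735476. It lies inside the Mest gene (chr6:30733506-30748466), 1.82 kb after the upstream start and 2.57 kb before the main start. Its level was 34.3, 46.9, 39.7 and 41.1% in unrestricted libraries 1 to 4. In restricted libraries 1 to 4 it was 20.8, 0, 20.7 and 30.6%. All 4 restricted libraries were below all 4 unrestricted ones, and restricted library 2 had no methylated read. The group means were 18% ± 12.9 (SD, n = 4) in the restricted and 40.5% ± 5.20 (SD, n = 4) in the unrestricted group. The difference was -22.5 points (SE 6.94). Such an order of libraries was found in 1.26% of all 1 kb tiles, and in 2.41% of tiles with a mean level of 20 to 80%. Since the locus was chosen with this contrast known, nothing is read from that share.

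The depth behind these levels was small. The median CpG of the region was covered by 24, 11, 15 and 16 reads in restricted libraries 1 to 4 and by 12, 27, 25 and 24 reads in unrestricted libraries 1 to 4. Restricted library 2 lay just inside the minimum of 10 reads, and its 0 of 11 reads allows a level of up to 27.3%, taken as 3 reads of 11, or 28.5% by the exact 95% binomial interval. The same kind of interval for restricted library 4 (11 to 58.7%) and unrestricted library 1 (9.92 to 65.1%), the closest pair across the groups, overlapped over most of their length. These intervals hold only the error of counting, as PCR copies of a molecule are not marked in the files.

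The Peg10-Sgce control region has 11 CpGs at chr6:4747363-4747484, 57 to 178 bp after the Peg10 start. It lies inside Peg10 (chr6:4747306-4760517) and begins 159 bp beyond the end of Sgce (chr6:4674350-4747204), from which Peg10 is parted by 101 bp. Its level was 46.8, 55.2, 28.5 and 31.0% in unrestricted libraries 1 to 4, and 19.6, 14.8, 35.4 and 30.1% in restricted libraries 1 to 4. The groups overlapped: restricted library 3 was above unrestricted libraries 3 and 4. The means were 25% ± 9.43 (SD, n = 4) with restriction and 40.4% ± 12.8 (SD, n = 4) without, a difference of -15.4 points (SE 7.94). Depth at the median CpG ranged from 19 reads in restricted library 2 to 60 in unrestricted library 2.

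At both control regions the lowest of the 8 levels was that of restricted library 2 and the highest that of unrestricted library 2. The order of the others was not the same. Over all 8 libraries, diet groups included, the levels of the 2 regions had a Pearson r of 0.722. Unrestricted library 1 was lowest of its group at the Mest region but above unrestricted libraries 3 and 4 at the Peg10-Sgce region.

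Neither difference was called in the fit over the whole table. That fit was a logistic regression with a moderated dispersion and Benjamini-Hochberg adjustment over all tiles, clusters or CpGs, with a call at an adjusted p under 0.05. The adjusted p was 0.251 for the Mest tile and 0.733 for the Peg10-Sgce tile, and 0.252 and 0.695 for the same CpGs as clusters. Of the 5 member tiles 0 were called, against a share of 0.0177% over all tiles; of the 5 clusters 0, against 0.0228%; and of the 39 member CpGs that could be tested 0, against 0.0997%. At an unadjusted p under 0.05 there were 2 member tiles, against 6.32% of all tiles, and 22 member CpGs, against 5.62%. limma on log2 ratios of methylated to unmethylated reads called 0 tiles, clusters and CpGs in the whole table, so its 0 members say nothing about these loci. The 2 tiles and 20 of the 22 CpGs are those of the control regions, and CpGs of 1 region are not separate evidence, as the next values show.

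Within a library the CpGs of a region read almost alike. At the Mest region the SD between its 9 CpGs was 0 to 4.01 points, while counting error alone would give 1 CpG of 1 library an SE of up to 13.7 points. At the Peg10-Sgce region the SD between 11 CpGs was 0.899 to 2.74 points against counting SEs of 5.92 to 8.99 points. Every library had the same number of reads at all CpGs of a region, to within 1 read. The 9 and the 11 CpGs are therefore repeat readings of the same reads, 66 in the restricted and 88 in the unrestricted group at the Mest region, and 125 and 183 at the Peg10-Sgce region. Counting each read once left the differences the same, and the adjusted p rose to 1 for both. The unadjusted p was 0.0176 at the Mest and 0.0442 at the Peg10-Sgce region, by the logistic fit. That setting called 0 tiles and 0 clusters in the whole table, so its adjusted p says nothing particular to these loci.

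The profile along each region was flat. Of the Mest CpGs, the first (30735330) had 19.6% ± 15.3 with and 40.8% ± 6.09 without restriction (SD, n = 4), and the last (30735476) 18% ± 13.1 and 40.8% ± 6.09. The lowest mean over 8 libraries was 27.8%, at 30735428, and the highest 31.0%, at 30735443. The smallest unadjusted p was at 30735470 (16.5% ± 11.2 and 40.8% ± 6.09; logistic fit over all CpGs, adjusted p = 0.481). All 9 CpGs were lower with restriction, with differences of -20.1 to -24.3 points. At the Peg10-Sgce region the first CpG (4747363) had 24.2% ± 8.11 and 40.4% ± 14.1, and the last (4747484) 24.1% ± 12.1 and 41.3% ± 11.9. The CpG at 4747418 had both the lowest mean over 8 libraries, 31.6%, and the smallest unadjusted p (22.8% ± 5.98 and 40.4% ± 10.8; logistic fit over all CpGs, adjusted p = 0.412), and that at 4747477 the highest mean, 33.6%. All 11 were lower with restriction, with differences of -12.6 to -17.6 points. No edge of either region, such as a step to a methylated or unmethylated neighbour, lay among the CpGs that reached the minimum.

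At the Peg10-Sgce region the observed diet difference was not the same on the 2 strands. Forward-strand and reverse-strand reads come from different DNA strands, so each library holds 2 separate readings of a region. On forward-strand reads the Peg10-Sgce level was 11.5, 28.2, 55.6 and 49.2% in restricted libraries 1 to 4, and 38.8, 43.0, 24.4 and 33.3% in unrestricted libraries 1 to 4. The means were 36.1% ± 20.2 and 34.9% ± 8.03 (SD, n = 4), a difference of 1.24 points in the opposite direction. On reverse-strand reads the restricted libraries had 30.6, 0, 16.2 and 13.6%, and the unrestricted ones 51.6, 71.0, 31.6 and 28.6%. These means were 15.1% ± 12.5 and 45.7% ± 19.7 (SD, n = 4), a difference of -30.6 points. The strands of 1 library thus lay 19.1 to 39.4 points apart in the restricted and 4.76 to 27.9 points apart in the unrestricted group, each from 9 to 34 reads. All 4 restricted libraries and 1 of the 4 unrestricted had a gap larger than the difference between the groups on both strands together, and the lower mean of the restricted group came from the reverse-strand reads. Whether the strands parted by more than counting error, and why, was not tested.

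At the Mest region the difference had the same direction on both strands. The forward strand had 15.7% ± 11.8 with and 37.7% ± 15.1 without restriction (SD, n = 4), a difference of -22.0 points. The reverse strand had 22.4% ± 17.4 and 44.2% ± 11.5 (SD, n = 4), a difference of -21.7 points. Restricted library 2 had no methylated read on either strand. The largest gap between strands was that of unrestricted library 1, with 15.9% on the forward and 60.0% on the reverse strand, from 7 and 5 reads.

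**Figure D2:**
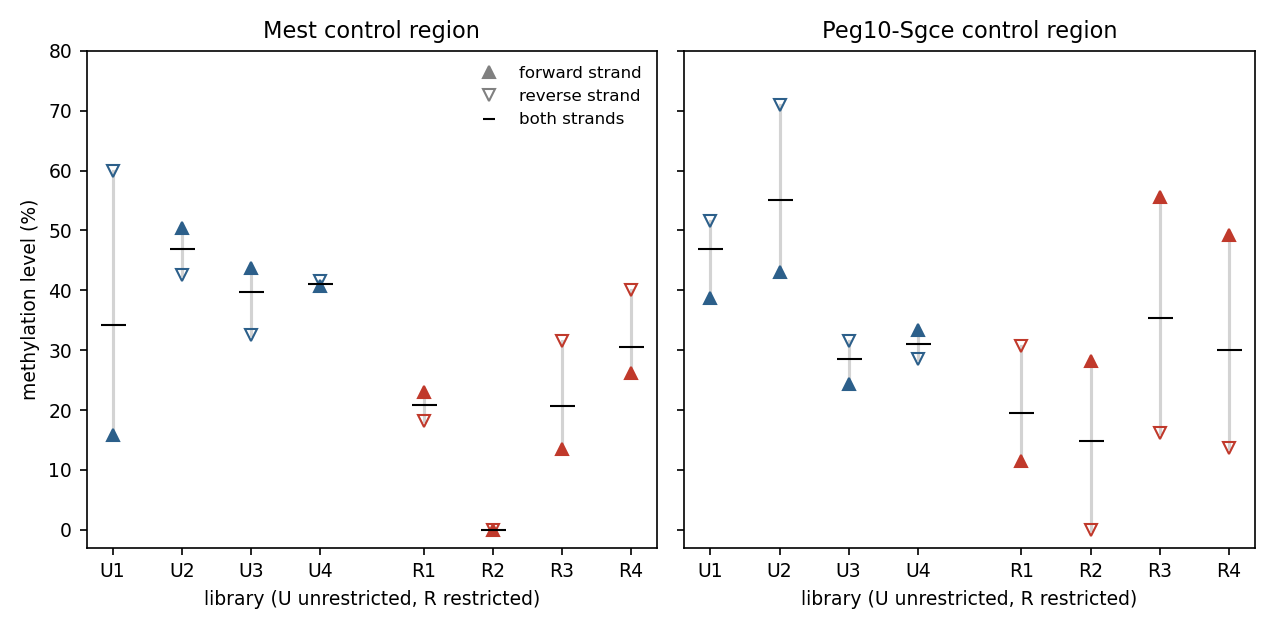
Methylation level (%) of both control regions on forward-strand reads (filled triangles), reverse-strand reads (open triangles) and both together (black bars), for unrestricted libraries U1 to U4 and restricted libraries R1 to R4. At the Peg10-Sgce region the forward-strand levels of R3 and R4, 55.6 and 49.2%, are the highest of all 8 forward readings, while their reverse-strand levels are 16.2 and 13.6%.

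Restricted libraries 1 and 2 stand apart in the whole series. The read-weighted minus the unweighted mean level over shared CpGs was -2.24 and -3.28 points in them, and the other 6 libraries had values of -0.575 to 0.817 points. With both left out, the difference was -14.9 points at the Mest region (adjusted p = 0.621) and -7.61 points at the Peg10-Sgce region (adjusted p = 0.856), by the same logistic fit. The part of this tilt in the differences was not tested further. Without restricted library 2 alone the Mest difference was -16.5 points and the Peg10-Sgce difference -12.0 points.

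Around the control regions some CpGs were read too thinly to be members, and their levels fill in the profile. A stretch of 3 CpGs 1211 to 1273 bp after the main Mest start had at least 5 reads in each library and lay just outside the minimum of 10. Its level was 31.3, 4.44, 50 and 47.2% in restricted libraries 1 to 4 and 33.3, 33.3, 80 and 52% in unrestricted libraries 1 to 4. The groups overlapped, with means of 33.2% ± 20.9 and 49.7% ± 22.1 (SD, n = 4), and restricted library 2 was again the lowest. Just after the main start, 8 CpGs 41 to 103 bp on had 5 or more reads in 4 libraries, of which 1 was restricted. The level there was 17.2% in restricted library 1, and 27.1% ± 23.9 (SD, n = 3) in 3 unrestricted libraries.

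Farther out the levels were mixed upstream and mostly high downstream. Upstream, 4 CpGs at -5239 to -5198 bp from the main start had 50% ± 3.54 (SD, n = 2) with and 66.8% ± 8.05 (SD, n = 2) without restriction. A CpG at -5094 bp had 10% ± 14.1 (SD, n = 2) and 35.7% ± 18.9 (SD, n = 3), and 5 CpGs at -4920 to -4883 bp had 45% ± 7.07 (SD, n = 2) and 52.3% ± 14.4 (SD, n = 3). Downstream, inside Mest, 5 CpGs 4579 to 4779 bp after the main start had 91.1% ± 7.18 (SD, n = 3) and 91.7% ± 4.34 (SD, n = 3). Single CpGs at 1204 and 1283 bp after the main start, on either side of the 3 CpGs there, read 0% in both groups. Between 1283 and 4579 bp no stretch had enough reads.

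**Figure D3:**
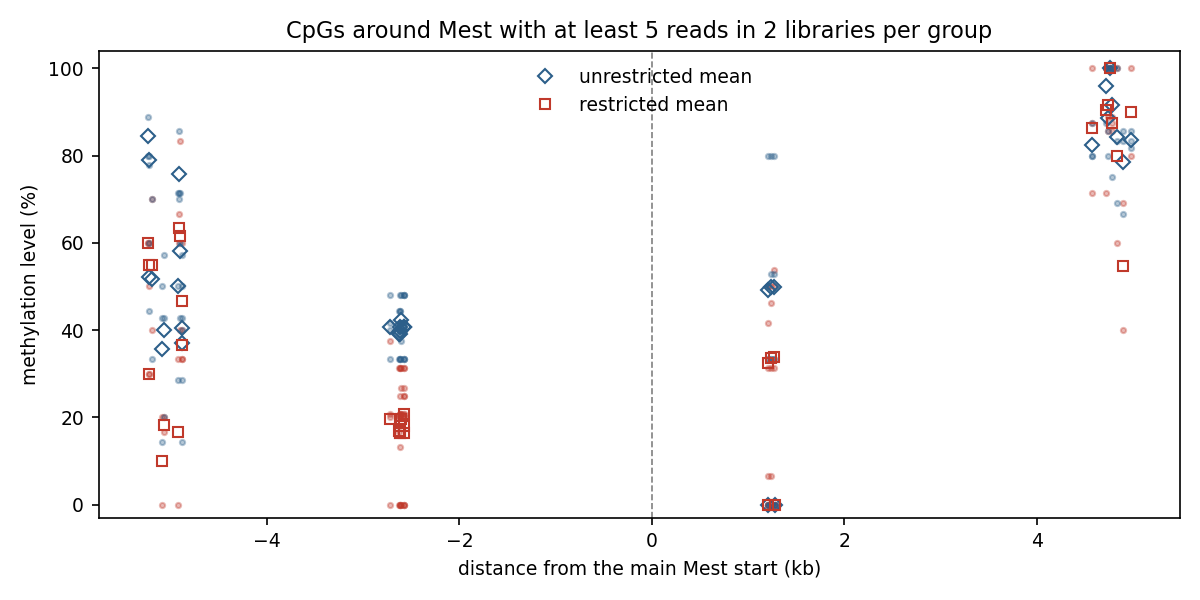
Methylation level (%) of single CpGs against the distance (kb) from the main Mest start, for CpGs with at least 5 reads in at least 2 libraries per group; small dots are libraries, open symbols group means. Group means spread widely about 5 kb before the start and lie at about 20 and 40% in the control region. From 4.58 kb after the start they are mostly high, with a lowest value of 54.6%, in the restricted group. Single CpGs at 0% flank the stretch near 1.27 kb.

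The bodies of Peg10 and Sgce were highly methylated in all 8 libraries. The Peg10 body cluster, 13 CpGs at chr6:4755344-4755994, had 95.9, 94.9, 96.3 and 95% in restricted libraries 1 to 4 and 93.5, 93.7, 96.5 and 95.5% in unrestricted libraries 1 to 4. The means were 95.5% ± 0.681 and 94.8% ± 1.46 (SD, n = 4), and the difference of 0.736 points (SE 0.803) was within the spread of the libraries (logistic fit, adjusted p = 0.809). The Sgce body cluster, 4 CpGs at chr6:4733688-4733803, had 88.7, 91.7, 93.8 and 87.5% in the restricted and 90.8, 93.0, 92.9 and 92.3% in the unrestricted libraries. The means were 90.4% ± 2.83 and 92.3% ± 1.03 (SD, n = 4), a difference of -1.85 points (SE 1.51; logistic fit, adjusted p = 0.812). On forward-strand reads alone this difference was 1.10 points. Within this cluster the first CpG, at 4733688, was lower than its neighbours, with 71.6% ± 8.84 and 84.4% ± 5.40 (SD, n = 4).

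**Figure D4:**
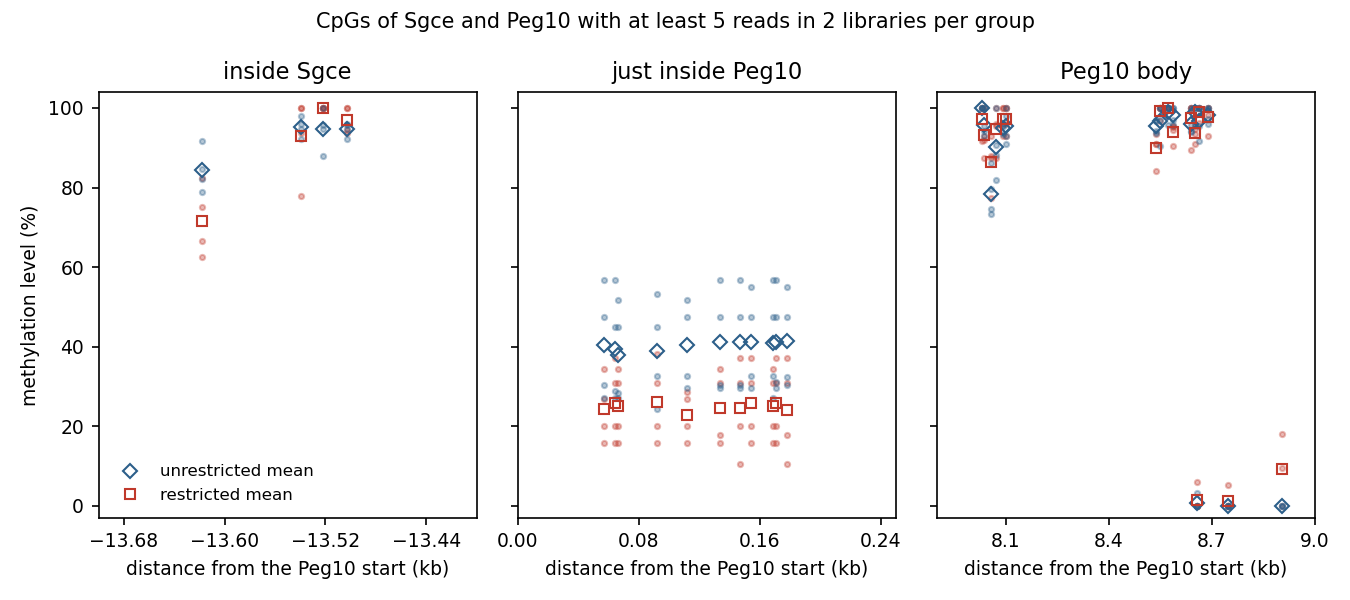
Methylation level (%) of single CpGs against the distance (kb) from the Peg10 start in 3 stretches, inside Sgce, just inside Peg10 and in the Peg10 body; small dots are libraries, open symbols group means. The 11 CpGs of the control region lie flat at restricted means of 22.8 to 26.2% and unrestricted means of 38.0 to 41.3%, between methylated bodies on both sides. The points under 20% in the Peg10 body are CpGs that missed the minimum of 10 reads.

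The start of Copg2 was unmethylated. Its cluster of 28 CpGs, at chr6:30896329-30896746, lies 48 to 465 bp after the Copg2 start. The level was 0% in 7 libraries and 0.13% in restricted library 1. The group means were 0.0325% ± 0.0650 with restriction and 0% without (SD, n = 4). In all, 26 of the 28 CpGs had no methylated read in any library. Restricted library 2 had the lowest depth, 16 reads at the median CpG. Its 0 of 16 reads there allow a level of up to 18.8%, taken as 3 reads of 16. The same state extended before the start, over the window printed above: 13 CpGs 22 to 124 bp before it had 5 or more reads in 7 libraries and 0% in each. Copg2 and Mest overlap by 913 bp at their 3′ ends, where no CpG reached the minimum.

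Set against all CpG clusters with a mean level of 20 to 80%, the control regions lay in the lower tail. The median difference of the 5338 such clusters was -0.618 points, 56.8% were lower with restriction, and the middle 90% lay between -8.17 and 6.30 points. As low as the Mest region or lower were 5 clusters (0.0937%), and as low as the Peg10-Sgce region or lower were 25 (0.468%), each count including the region itself. The loci were chosen with these differences known, so the ranks describe and do not test.

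**Figure D5:**
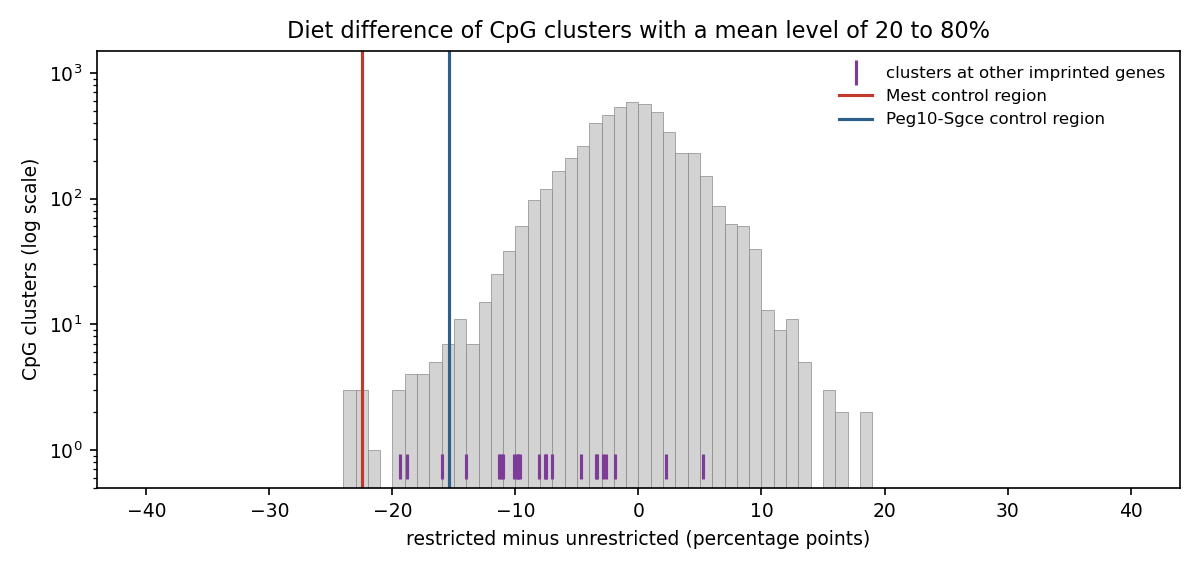
Difference by diet (restricted minus unrestricted, percentage points) of the 5338 CpG clusters with a mean level of 20 to 80%, as a histogram with a log count axis; the lines mark the Mest and Peg10-Sgce control regions and the ticks 23 clusters at other imprinted genes. The lines stand at -22.5 and -15.4 points, and 21 of the 23 ticks lie below 0, against 56.8% of the 5338 clusters.

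The list held 24 other genes that have a germline control region, or that hold or adjoin a gene with one. Of these, 17 had a cluster of 20 to 80%, giving 23 clusters, 6 had none and 1 was not in the gene table. Some loci gave several clusters, such as Gnas and Zrsr1 with Commd1, so the 23 are not separate loci. Of the 23 clusters 2 were called lower and 0 higher, against 0.0196% called lower over all clusters. In all, 21 lay lower and 2 higher, and their median difference was -8.09 points. Of the 5338 clusters of 20 to 80%, 56.8% lay lower, and the median difference was -0.618 points. The called ones were at Gnas (48.4% ± 4.87 to 29.1% ± 3.8), the gene of the stimulatory G protein alpha subunit, and at Zrsr1 within Commd1 (48.0% ± 3.17 to 29.2% ± 4.90). Both had an adjusted p of 0.0253 by the logistic fit (n = 4). The other clusters of these loci were not called. Their differences ranged from -11.4 to 5.23 points at Gnas and were -8.09 and -4.65 points at Zrsr1 within Commd1. The cluster of next smallest p, at Nap1l5, also on chromosome 6, had 44.1% ± 4.75 without and 30.1% ± 7.74 with restriction (adjusted p = 0.232). These calls were not stable: their number stayed at 2, or within 1.5 times, in 5 of 23 alternatives, and was 0 without restricted library 2, unrestricted library 3 or unrestricted library 4, and 1 without restricted library 1, restricted library 4 or unrestricted library 1. This list was drawn up with these results known. The Mest and Peg10-Sgce regions share the direction of most of the list; whether they differ from it was not tested.

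No cluster at the neighbouring genes was called. Of 16 neighbours on chromosome 6, 7 had clusters, 13 in all. Of these 0 were called, 7 lay lower and 6 higher. The median difference was -0.0732 points against -0.00998 over all 30671 tested clusters. Only 1 of the 13 had a mean level of 20 to 80%. The rest had means of at most 11.9%, where a drop as large as those of the control regions could not occur. At an unadjusted p under 0.05 there was 1 of the 13, at Cep41, a centrosomal gene beside Mest, with 61.0% ± 4.98 with and 68.8% ± 5.68 without restriction (SD, n = 4; logistic fit, adjusted p = 0.752). Cep41 held 2 further clusters, with 0.278 and 5.88% with and 0.0392 and 8.59% without restriction (adjusted p = 0.787 and 0.802). After Cep41, the genes whose clusters had the smallest p were Dlx5, a homeobox gene beyond Peg10 (3.29% ± 0.999 and 1.26% ± 1.51; adjusted p = 0.787), and Klf14, an imprinted single-exon gene beyond Copg2 (0.184% ± 0.140 and 0.430% ± 0.223; adjusted p = 0.809), by the same fit.

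The tiles whose level varied most like that of the Mest region over the 8 libraries, among 2047 tiles of 20 to 80% with enough CpGs and reads, were at Celf4 (Pearson r = 0.955), Pura (r = 0.946) and Arhgap23 (r = 0.939). Of these the Celf4 tile had 37.6% without and 21.2% with restriction, and the Arhgap23 tile 78.6 and 77.1%. For the Peg10-Sgce region they were at Gdf1, Cers1 and Upf1, which share a tile (r = 0.908), at Alox5ap (r = 0.906) and at Gnas with Gnasas1 (r = 0.902). These are the highest of many values over 8 libraries that share depth and diet group, and are descriptions only.

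Across the series, depth was 16045992 to 37305007 reads over CpG cytosines per library, with medians of 20 to 44 reads per shared CpG. As a check of the cell type label, levels within 1 kb of the start were read for marker genes. Of 10 nephron progenitor markers, 5 were measured (Six2, Sall1, Pax2, Gdnf and Hoxd11), all at 0 to 0.308% in every library. The measured markers of other cells were also low, at most 0.594% for Tal1 of blood, 0.0716% for Foxd1 of stroma and 1.22% for Wnt11 and Gata3 of the ureteric bud, and of 5 endothelial markers 0 were measured. Unmethylated starts in all types do not tell these cells apart, so the label could be neither checked nor faulted from these files.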

How the data were processed

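RRBS libraries from sorted progenitors, 4 of the restricted and 4 of the unrestricted diet by their labels, were compared. Of tools, the submitters' processing notes list methylKit, Bismark 0.13.1, Trim Galore 0.3.3, FastQC and cutadapt, with build mm10 and no settings. Whether duplicates were removed is not stated in these notes. The deposited files hold, for each CpG cytosine, the count of reads and the percent called methylated and unmethylated by the authors. Multiplying count and percent gave whole methylated reads, which were added over both strands of a CpG. A CpG on an autosome was kept if each of the 8 libraries covered it by 10 reads or more. Bisulfite reads do not tell methylcytosine from hydroxymethylcytosine.

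Levels are methylated over total reads of a unit, per library, then averaged by group. Tiles of 1 kb and clusters (gaps up to 500 bp), each with at least 3 CpGs, and single CpGs were fitted by logistic regression with 1 term for diet and a likelihood-ratio F test. The Pearson dispersion was moderated across units and not allowed under 1, and p-values were adjusted by Benjamini-Hochberg over the whole table (Python 3.11.15, NumPy 2.4.6, SciPy 1.17.1). The fit was tested on simulated data; limma 3.58.1 was an alternative, as were other read minimums, tile and cluster sizes, dispersion rules, single strands and leaving out libraries. The RefSeq table of GRCm38.p6 gave gene positions, and its promoter table the sequences and starts of Mest and Copg2; Peg10 and Sgce were taken from gene ends. A control region was the cluster of 20 to 80% with the most CpGs at its locus. Single CpGs named are the outermost, the lowest and highest in level and that of smallest p of each region; of other genes, at most 3 per list and the 3 most alike are named. The members and lists were chosen with earlier results of these data known.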

Additional observations from a re-analysis of the deposited data

Results flagged for a closer look

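The Copg2 start cluster in restricted library 1, at 0.13%, stood apart from the other 3 restricted libraries, which were at 0%, by Dixon's test at the 95% level. With 3 values tied at 0 any other value is marked, so the flag says little, and it rests on 2 methylated of 1539 CpG readings. Chance flags about 1 in 20 groups of 4 samples, and 12 groups were looked at, the 5 clusters and the 3-CpG stretch after the main Mest start in each diet group. Restricted library 2, at 0% in the Mest control region against 20.7 to 30.6% in the other 3, was not marked by that test.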

How the results depend on the processing

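No member was called under any alternative but 1. With the dispersion fixed at 1, which leaves out the spread between libraries beyond read counting, 2 member tiles and 2 member clusters were called, of 607 tiles and 614 clusters in the whole table. The Mest difference of -22.5 points then had an adjusted p of 1.7e-15 and the Peg10-Sgce difference of -15.4 points one of 6.2e-20. The Peg10-Sgce difference turned to 1.24 points on the forward strand (adjusted p = 0.910). Among the other clusters, the Peg10 body difference was -1.53 points at a minimum of 5 reads and -1.02 with clusters split at gaps over 250 bp. Both settings change which CpGs make up that cluster. The Sgce body difference turned to 1.10 points on the forward strand. None of these differences was called. Leaving out 1 library, the Mest difference ranged from -26.6 to -16.5 points (adjusted p 0.0885 to 0.405) and the Peg10-Sgce difference from -19.3 to -10.4 points (adjusted p 0.313 to 0.816). The counts of called member tiles, clusters and CpGs were 0 each time. Without unrestricted library 4, 0 tiles and 0 clusters were called in the whole table. The same held for limma, the prior from well covered units, the replicate block with the prior over all units, and each read counted once. In these settings 0 called tiles or clusters, at members or at other imprinted genes, say nothing particular to them. The 2 calls among the other imprinted clusters stayed within 1.5 times in 5 of 23 alternatives and ranged from 0 to 14. They became 0 without restricted library 2, unrestricted library 3, unrestricted library 4 or both restricted libraries 1 and 2, at a minimum of 5 reads, by limma, with the prior from well covered units, with either replicate block, with unweighted CpG means, on the reverse strand and with each read counted once.

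No pairing of the libraries by replicate number was seen. Over 5314 tiles, deviations of same-numbered libraries correlated at 0.0242, -0.0995, -0.0412 and 0.0299. The highest value of a restricted library with any unrestricted one was 0.0718, also small. These values do not tell whether the libraries were paired by design. Restricted library 4 matched unrestricted library 4 best. With the replicate block 0 tiles, clusters and CpGs were called in the whole table, members included, and the adjusted p was 0.939 for both control regions. That fit had a weak dispersion prior, so a replicate block with the prior from well covered units was added after seeing the data, as was counting each read once; the block then called 2 tiles, 1 cluster and 0 CpGs in the whole table, 0 of them members, and gave an adjusted p of 0.909 for both. At a minimum of 20 reads neither control region nor the Sgce and Peg10 body clusters gave a value. Levels within 1 kb of the RefSeq start were not run, since no shared CpG of Mest lay there and Peg10 and Sgce had no start in the promoter table. Depth limits the control regions, which rest on 11 to 27 reads per library for Mest and 19 to 60 for Peg10-Sgce.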

Other observations

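Single CpGs near 0% stood among methylated neighbours at both loci, each read almost wholly from 1 strand. In the Peg10 body, the CpG at 4755964 had 2.13% of 141 reads methylated, all from the reverse strand, with 8 neighbours at 93.3 to 99.2%. The CpG at 4756054 had 1.12% of 89 reads, 88 of them forward, with 4 neighbours at 96.6 to 98.3%. Inside Sgce, the CpG at 4719359 had 0% of 98 reverse-strand reads, 99 bp from a CpG at 86.2%. In Mest, the CpGs at 30739254 (0% of 61 reverse-strand reads) and 30739333 (0% of 48 forward-strand reads) lay on either side of the 3 CpGs at 36.7 to 37.8%. None of these 5 CpGs was a member, since each missed the read minimum in at least 1 library. They were picked out after their values were seen, and whether they are CpGs in the DNA of these mice was not tested.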
